A study of Danio rerio with 18 samples.

Results

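The genes described are 7 that code for hormone and neuropeptide precursors of the islet and the gut: ins, gcga, gcgb, sst2, ghrl, penkb and insl5a. They were chosen by name from the symbol column of the authors' deposited table. All 7 were found, among 21227 symbols, on 10 of the table's 56754 transcript rows, and each gene is represented by its row with the highest read level. The question for each was how much messenger RNA the digestive organs held, and whether a meal changed it.

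The samples were digestive organs (intestine, liver and pancreas together) of wild-type zebrafish larvae of the AB strain at 6.5 days post fertilization, with 10 larvae pooled per sample. The 18 samples formed 6 groups of 3. One cohort was unfed, or sampled 1 h or 4 h after a meal of 5% egg yolk emulsion (high-fat). The other was unfed, or sampled 1 h or 4 h after a meal of 10% egg white (low-fat). Each of the 4 comparisons set fed larvae against the unfed larvae of their own cohort, so both times of a meal share the same unfed samples. The table holds averages and fold changes but no values of single samples, and the depth of each library is unknown. In pooled organs, fewer endocrine cells and less RNA per endocrine cell cannot be told apart.

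Endocrine cells of the gut and the pancreas sense nutrients and release peptides, which are cut from larger precursors by proteases of the secretory granule. Insulin from beta cells drives storage of sugar and fat, glucagon from alpha cells releases stored glucose, and somatostatin from delta cells restrains both. In mammals, glucagon-like peptides, ghrelin, insulin-like peptide 5 and enkephalins come largely from other endocrine cells or neurons of the gut wall. Release draws on stored peptide, whereas the assay measured messenger RNA.

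The hormone transcripts ranged from near the lowest of the measured genes to well above most of them by rank. The authors' deposited table gave ins, the insulin gene, an average of 44.5 CPM (reads scaled to the library total), more reads than 90.0% of the 12828 genes taken as measured (average log2 CPM 0 or above). For gcga, 1 of the 2 proglucagon genes, the authors' deposited table gave 24.2 CPM, and for the other, gcgb, 9.77 CPM. sst2, a somatostatin gene, had 14.8 CPM in the authors' deposited table. The level of ghrl, the ghrelin gene, was 4.23 CPM in the authors' deposited table. insl5a, whose counterpart in mammals is a hormone of enteroendocrine cells of the colon, had 2.97 CPM in the authors' deposited table. penkb, a proenkephalin gene coding for opioid peptides, was near the lower end of the measured genes at 1.03 CPM in the authors' deposited table, with only 0.577% of genes below it. CPM is not corrected for transcript length, so these levels order the genes by reads and not by molecules. As a check of the dissection, exocrine pancreas genes reached 1.36e+04 CPM, enterocyte genes 1.10e+04 CPM and liver genes 1680 CPM in the authors' deposited table, so all 3 labelled organs were represented. Skeletal muscle markers, from outside these organs, reached 446 CPM in the authors' deposited table, more than ins.

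**Figure D1:**
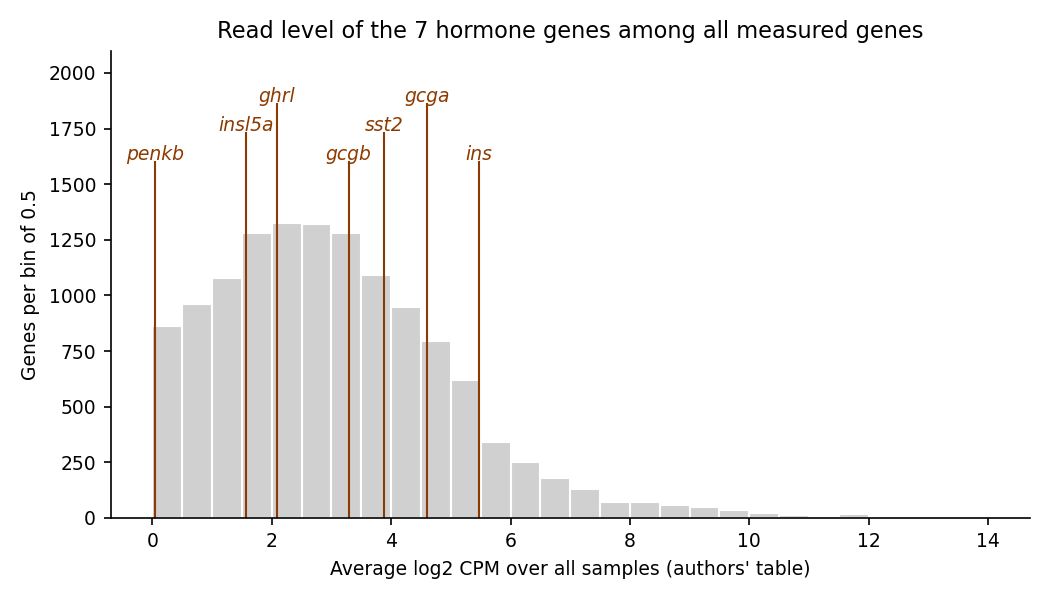
Histogram of the average log2 CPM of the 12828 measured genes (x axis, bins of 0.5; y axis, genes per bin), with a vertical line at each hormone gene. The lines run from penkb at 0.05 to ins at 5.48, and line height carries no value.

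The genes lie on 6 chromosomes of genome build Zv9. The ins row spans chromosome 5 from 39454959 to 39457905, sst2 chromosome 2 from 5368743 to 5371566, gcga chromosome 22 from 11725150 to 11736164, and penkb chromosome 7 from 59931811 to 59941037. Chromosome 6 holds insl5a from 30395998 to 30400293 and ghrl from 40368741 to 40370479. The coordinates mark loci, and exons are not given. The 2 gcgb rows span chromosome 9 from 52494636 to 52623098, a stretch of 128463 bases whose coordinates are also given for ifih1, which codes for a sensor of viral RNA, and fap, a membrane protease gene. Of the 7 genes, 6 carry the annotation hormone activity, and penkb carries neuropeptide signaling pathway.

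Hereafter the meals are called egg yolk (high-fat) and egg white (low-fat). No islet hormone transcript passed the test after either meal. For ins the authors' deposited table gave log2 fold changes of 0.07 and 0.20 at 1 h and 4 h after egg yolk. Egg white gave 0.15 and 0.03 for ins in the authors' deposited table, with adjusted p = 1 in all 4 comparisons. All 4 ins values thus lay within a 1.15-fold difference of the unfed level. Errors were taken from the authors' p-values, which imply a standard error of 0.359 for ins and a 95% half-width of 0.70 on the log2 scale. This error depends on read level and hardly on the gene, so it does not carry a gene's own spread between samples. On that basis the 95% interval for ins at 1 h after egg yolk ran from 0.643-fold to 1.71-fold. At 4 h after that meal it ran from 0.706-fold to 1.87-fold. Of the 2026 genes within 1 log2 CPM of ins, 10.5% had a smaller largest change over the 4 comparisons.

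The glucagon gene gcga also passed no test. The authors' deposited table gave 0.20 and -0.06 for gcga at 1 h and 4 h after egg yolk. After egg white the authors' deposited table gave 0.15 and -0.02 for gcga, and no adjusted p was below 1. Among the 3325 genes within 1 log2 CPM of gcga, 9.56% had a smaller largest change. The second gcga row, at lower reads, differed from the first by at most 0.16 in any comparison.

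The paralog gcgb lay above 0 in all 4 comparisons without passing the test in any. The authors' deposited table gave gcgb 0.38 and 0.47 at 1 h and 4 h after egg yolk (adjusted p = 0.939 and 1). The egg white values of gcgb in the authors' deposited table were 0.49 and 0.18 (adjusted p = 0.784 and 1). The 95% interval for gcgb at 1 h after egg white, 0.855-fold to 2.29-fold, spans no change. At that time the overlapping ifih1 had a call in the authors' deposited table, with a rise of 1.31 (adjusted p = 0.0265). Whether reads of ifih1 entered the gcgb rows was not tested. The authors' deposited table gave ifih1 0.12 and 0.08 at 1 h and 4 h after egg yolk, and 0.61 at 4 h after egg white. Its level there was 2.32 CPM.

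sst2 had its lowest value soon after egg yolk. The authors' deposited table gave -0.57 for sst2 at 1 h (adjusted p = 0.658) and 0.15 at 4 h after egg yolk. After egg white the authors' deposited table gave -0.20 and -0.04 for sst2, both with adjusted p = 1. A transcript row without a symbol, with the same start and end, had -0.58 at 1 h after egg yolk in the authors' deposited table. Whether it shares reads with the sst2 row was not tested, so its value is not separate evidence. The difference between 4 h and 1 h after egg yolk was 0.72 for sst2 (95% interval 0.01 to 1.43), which failed the correction over 12828 genes (adjusted p = 0.283).

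ghrl, a gene whose peptide signals hunger in mammals, had its lowest value in the same comparison. The authors' deposited table gave -0.55 and -0.15 for ghrl at 1 h and 4 h after egg yolk (adjusted p = 0.715 and 1). The egg white values of ghrl were -0.06 and 0.11 in the authors' deposited table, again with adjusted p = 1. The 95% interval at 1 h after egg yolk ran from 0.414-fold to 1.13-fold. Both ghrl rows of the table differed by at most 0.07.

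penkb was the single member that passed the test. It rose by 1.40 on the log2 scale, or 2.64-fold, at 1 h after egg white in the authors' deposited table (adjusted p = 0.0127). Its 95% interval ran from 1.53-fold to 4.55-fold. At 1 h after egg yolk penkb had 0.97, or 1.97-fold, in the authors' deposited table, which passed without correction (p = 0.02) and not with it (adjusted p = 0.273). The 4 h values of penkb were 0.32 after egg yolk and 0.08 after egg white in the authors' deposited table, both with adjusted p = 1. The difference between the meals at 1 h, egg yolk minus egg white, was -0.42 for penkb, with a 95% interval of -1.54 to 0.69 (adjusted p = 1). From 1 h to 4 h after egg white penkb differed by -1.32 (95% interval -2.10 to -0.53), just missing the threshold after correction (adjusted p = 0.0509). The read level of penkb lies just above the filter of log2 CPM 0, and that average includes the groups in which penkb was higher. With no values of single samples available, whether its level in unfed larvae alone would pass the filter is unknown.

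insl5a had its highest value at 4 h after egg yolk. The authors' deposited table gave 0.78, or 1.72-fold, for insl5a there, with p = 0.038 before and 0.577 after correction. At 1 h after egg yolk the authors' deposited table gave 0.15 for insl5a. Egg white gave 0.09 at 1 h and -0.25 at 4 h for insl5a in the authors' deposited table, each with adjusted p = 1. Egg yolk minus egg white at 4 h was 1.04 for insl5a, with a 95% interval of 0.00 to 2.08 (adjusted p = 1).

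**Figure D2:**
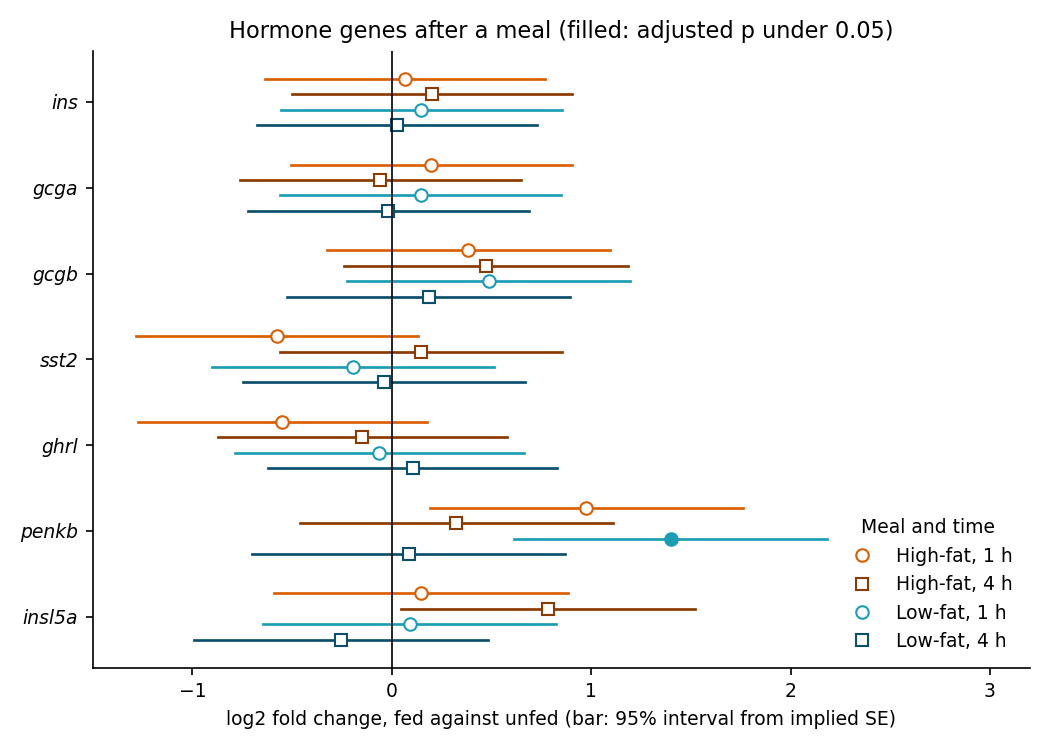
Log2 fold change of fed against unfed larvae (x axis) for each hormone gene (y axis), with 1 point per meal and time, 95% intervals as bars and filled points where the adjusted p was under 0.05. The penkb point at 1.40, 1 h after egg white, is the one filled point, and the ins and gcga points lie between -0.06 and 0.20.

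Counted together, 1 of 28 member values passed the authors' threshold (adjusted p under 0.05). At 1 h after egg yolk 0 of 7 members passed, against a background of 3.73% of the 12828 genes called, and 1 had an unadjusted p under 0.05, as did 14.5% of all genes. At 4 h after egg yolk the count was also 0 of 7 against a background of 1.36%, and 1 had an unadjusted p under 0.05, as did 7.77% of all genes. For egg white, 1 of 7 passed at 1 h, against 4.06% of genes, and that 1 alone had an unadjusted p under 0.05, as did 14.2% of all genes. For egg white at 4 h, 0 of 7 passed and 0 had an unadjusted p under 0.05, against 0.444% and 2.55% of genes. The median member value was 0.15, 0.20, 0.15 and 0.03 in this order, beside medians of all genes of -0.01, 0.01, 0.02 and 0.02. A change at the read level of ins had to reach about 1.16 at 1 h and 1.25 at 4 h after egg yolk to pass. The size needed for penkb was 1.28 at 1 h after egg white. Smaller changes were not detectable in this design, so the values without a call do not show that these levels stayed the same.

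Direct comparison of the meals and of the times called none of the members. The authors' log2 fold changes were subtracted and tested by a normal approximation from the implied errors, adjusted over 12828 genes. Each meal had its own cohort and feed percentage, so differences between meals cannot be told apart from differences between cohorts or feed percentages. Between meals, 0 of 7 members passed at 1 h and 0 of 7 at 4 h, with 0 at an unadjusted p under 0.05 both times, while 0.982% and 0.546% of genes were called. Between 4 h and 1 h, 0 of 7 passed after egg yolk and 0 of 7 after egg white, with 1 each (sst2 and penkb) at an unadjusted p under 0.05, while 6.53% and 2.02% of genes were called.

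Paralogs of the members did not all share their values. penka, the more abundant proenkephalin gene at 17.5 CPM, had 0.26 at 1 h after egg white in the authors' deposited table (adjusted p = 1), where penkb rose. Its value was 0.16 at 1 h after egg yolk in the authors' deposited table. Of the other somatostatin genes, sst1.2 had -0.51 at 1 h after egg yolk in the authors' deposited table, near the value of sst2 (adjusted p = 0.751). sst1.1 stood at 0.45 in that comparison and at 0.52 at 1 h after egg white in the authors' deposited table (adjusted p-values of 0.85 and 0.718). Differences between paralogs were not tested.

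insl5b, the paralog of insl5a, was called in 2 comparisons with opposite signs, at a low level of 0.348 CPM. Because its log2 CPM lies below 0, it was singled out after its values were seen. It rose by 2.36, or 5.14-fold, at 4 h after egg yolk in the authors' deposited table (adjusted p = 0.000969). At 1 h after egg white insl5b had a call in the authors' deposited table, where it fell by 1.76 (adjusted p = 0.0105). The authors' deposited table gave insl5b 0.69 at 1 h after egg yolk and -0.56 at 4 h after egg white, neither of which passed (adjusted p = 0.829 and 1). Egg yolk minus egg white at 4 h was 2.92 for insl5b (95% interval 1.52 to 4.32, adjusted p = 0.0141 over all 21227 symbols), with 2.45 at 1 h (adjusted p = 0.0532). As the meals went to separate cohorts at different feed percentages, these differences cannot be assigned to the meal alone. Within the egg yolk cohort, 4 h minus 1 h was 1.67 for insl5b (95% interval 0.68 to 2.67). That difference passed the approximate test (adjusted p = 0.024 over all 21227 symbols). After egg white, 4 h minus 1 h was 1.21 for insl5b and did not pass (adjusted p = 0.314). The insl5b row spans chromosome 2 from 9916659 to 9917958. The intervals of insl5a and insl5b at 4 h after egg yolk overlap, 0.05 to 1.52 against 1.37 to 3.35. Such overlap does not settle whether the 2 genes differ, and their difference was not tested.

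**Figure D3:**
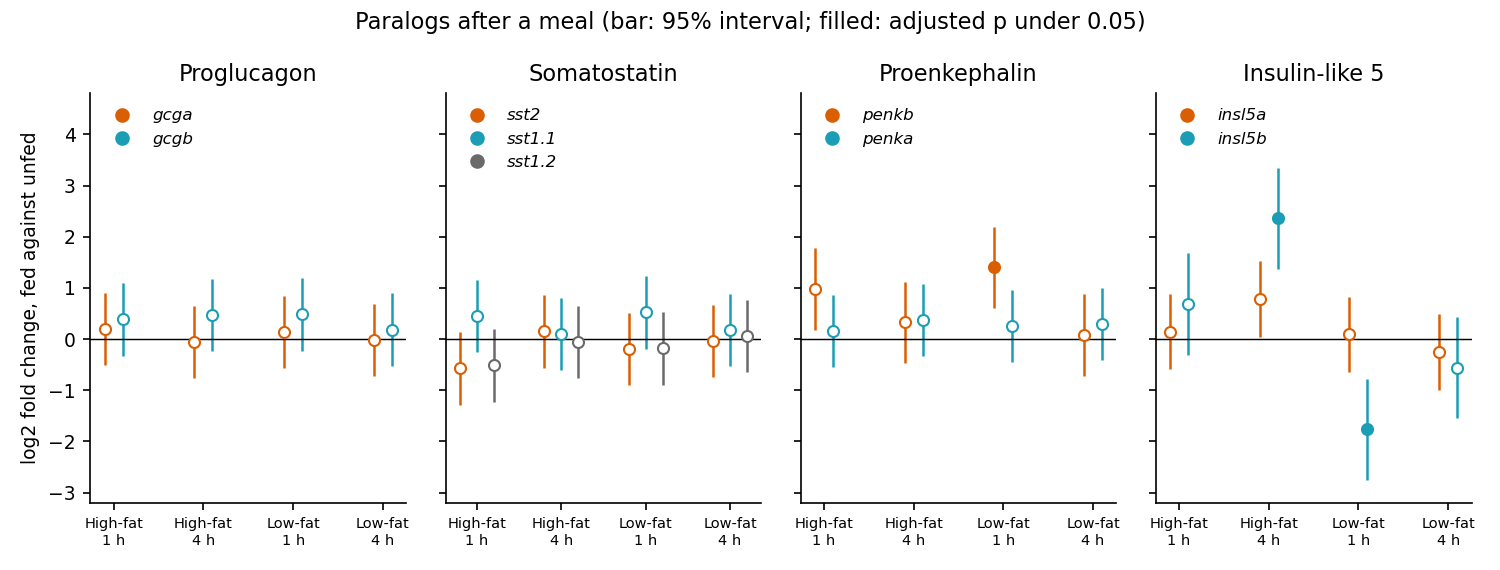
Log2 fold change of fed against unfed larvae (y axis) by meal and time (x axis) for members and their paralogs in 4 families, with 95% intervals as bars and filled points where the adjusted p was under 0.05. insl5b stands at 2.36 at 4 h after egg yolk and at -1.76 at 1 h after egg white, and penka stays within 0.16 to 0.37.

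Other hormone precursors of islet and gut also went without a call at measured levels. Of 51 listed precursors 42 were matched and 19 had a log2 CPM of at least 0, which includes the 7 members. Among the other 12, 0 passed in each of the 4 comparisons, with 1, 2, 0 and 0 at an unadjusted p under 0.05 in the order egg yolk 1 h, egg yolk 4 h, egg white 1 h and egg white 4 h. The shares of all 12828 genes called were 3.73%, 1.36%, 4.06% and 0.444%, and 14.5%, 7.77%, 14.2% and 2.55% had such a p. calca, the calcitonin and CGRP gene, came closest, at 1.26 at 1 h after egg yolk in the authors' deposited table (adjusted p = 0.0541). pyyb, which codes for a peptide YY, had 0.92 at 4 h after egg yolk in the authors' deposited table (adjusted p = 0.313). Egg white gave pyyb -0.31 at both times in the authors' deposited table. Egg yolk minus egg white for pyyb at 4 h was 1.23 (95% interval 0.23 to 2.23), which failed the correction (adjusted p = 0.761). The incretin gene gip had -0.58 and -0.45 at 1 h and 4 h after egg yolk in the authors' deposited table, and -0.46 and -0.09 after egg white. cck, which codes for cholecystokinin, a trigger of gallbladder and pancreas secretion, had 0.52 and 0.53 at 1 h after egg yolk and egg white in the authors' deposited table (adjusted p-values of 0.741 and 0.724). The remaining precursors of at least 4 CPM were all without a call. They were mlnl, a motilin-like gene, from -0.36 to 0.03, vip from -0.39 to 0.17, and adcyap1a, a PACAP gene, from -0.23 to 0.56 in the authors' deposited table. Below a log2 CPM of 0 stood 23 matched precursors, with 3 calls in all: both calls of insl5b, and grp, the gastrin-releasing peptide gene, which rose by 1.80 at 1 h after egg white in the authors' deposited table (adjusted p = 0.0214) at 0.282 CPM. That is 0, 1, 2 and 0 of 23 in the order given above, beside 1.93%, 0.762%, 2.45% and 0.381% of all 8399 genes below a log2 CPM of 0. The other grp values had no call: -0.46 and -1.49 at 1 h and 4 h after egg yolk, and 0.58 at 4 h after egg white.

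The wider set of 28 measured genes annotated with hormone activity gave 1 call at 1 h after egg yolk and 1 at 1 h after egg white, near the 3.73% and 4.06% of all genes, and 0 at 4 h after each meal. The 28 include 6 of the members described above. At 1 h, 4 and 4 of the 28 had an unadjusted p under 0.05 after egg yolk and egg white, as did 14.5% and 14.2% of all genes. At 4 h, 5 and 1 of the 28 had such a p, as did 7.77% and 2.55% of all genes. The shares of all genes called at 4 h were 1.36% and 0.444%. igf2b, an insulin-like growth factor gene, rose by 1.18 at 1 h after egg yolk in the authors' deposited table (adjusted p = 0.0468). stc2b, a stanniocalcin gene, fell by 1.58 at 1 h after egg white in the authors' deposited table (adjusted p = 0.00152). At 1 h after egg yolk stc2b had -1.09 (adjusted p = 0.079), and at 1 h after egg white igf2b had 0.75 (adjusted p = 0.378), neither with a call. Both genes were named after their values were seen.

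The machinery that cuts and packs prohormones had no call. Of 25 measured genes of prohormone processing and secretory granules, 0 passed in any of the 4 comparisons, with 0 at an unadjusted p under 0.05. At 1 h and 4 h, 3.73% and 1.36% of all genes were called after egg yolk, and 4.06% and 0.444% after egg white. An unadjusted p under 0.05 was found for 14.5% and 7.77% of all genes after egg yolk, and 14.2% and 2.55% after egg white. The medians of the 25 were -0.02 and 0.04 at 1 h and 4 h after egg yolk, and 0.00 and -0.03 after egg white. For pcsk1, a prohormone convertase, the authors' deposited table gave 0.65 at 1 h after egg yolk (adjusted p = 0.582). Its partner pcsk2 lay between -0.15 and 0.13 in the authors' deposited table, and cpe, the carboxypeptidase that trims the cut ends, between -0.08 and 0.06.

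Transcription factors of islet and enteroendocrine cells had no call either. Of 16 measured factors 0 passed in each comparison, with 2, 0, 0 and 1 at an unadjusted p under 0.05. In the same order 3.73%, 1.36%, 4.06% and 0.444% of all genes were called, and 14.5%, 7.77%, 14.2% and 2.55% had such a p. The lowest value, -1.19 for nkx6.2 at 1 h after egg yolk in the authors' deposited table, missed the threshold (adjusted p = 0.083). pdx1, which pancreas and beta cells require, lay between -0.57 and 0.20 in the authors' deposited table. mafa, a factor of mature beta cells in mammals, lies just below the level filter at 0.88 CPM and was named after its values were seen. It rose by 1.59 at 1 h after egg white in the authors' deposited table (adjusted p = 0.00834), where ins itself had 0.15. The other mafa values had no call: 0.49 and -1.19 at 1 h and 4 h after egg yolk, and 0.48 at 4 h after egg white.

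Receptors for these hormones had no call at measured levels. Of 7 measured receptors 0 passed in each comparison, with 1, 0, 2 and 0 at an unadjusted p under 0.05. Among all genes 3.73%, 1.36%, 4.06% and 0.444% were called, and 14.5%, 7.77%, 14.2% and 2.55% had such a p. Of the receptors, 7 of 7 lay below 0 at 1 h after egg yolk and 5 of 7 at 1 h after egg white. The median was -0.26 in the first and -0.55 in the second. At 4 h, 3 of 7 lay below 0 after egg yolk and 6 of 7 after egg white, with medians of 0.05 and -0.26. The 7 include igf1ra and igf1rb, insulin-like growth factor receptor genes. The glucagon receptor gene gcgra had -1.12 at 1 h after egg white in the authors' deposited table (adjusted p = 0.063), against -0.06 at 1 h after egg yolk. The difference between the meals at 1 h, 1.06 for gcgra (95% interval 0.06 to 2.06), failed the correction (adjusted p = 0.89). Its paralog gcgrb, at 1.34 CPM, was lower at 1 h after both meals without a call. The authors' deposited table gave gcgrb -1.06 after egg yolk (adjusted p = 0.159) and -0.99 after egg white (adjusted p = 0.194). Egg yolk minus egg white at 1 h was -0.07 for gcgrb, with a 95% interval of -1.17 to 1.03. Below the level filter, si:dkey-1h24.2, matched through a RefSeq synonym to the cholecystokinin receptor gene cckbra, went the other way and was named after its values were seen. At 0.446 CPM it rose by 1.81, or 3.51-fold, at 1 h after egg white in the authors' deposited table (adjusted p = 0.0155). Its other values had no call: 0.17 and -0.70 at 1 h and 4 h after egg yolk, and 0.80 at 4 h after egg white. The insulin receptor genes insra and insrb had -0.46 and -0.39 at 1 h after egg yolk and -0.55 and -0.54 at 1 h after egg white in the authors' deposited table.

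Among 13 genes of glucose sensing and secretion coupling 1 was called. gpd2, the mitochondrial glycerol phosphate dehydrogenase, rose by 1.86 at 4 h after egg yolk in the authors' deposited table (adjusted p = 0.000218). In that comparison 0.741% of all genes were called higher and 0.616% lower. The glucose transporter gene slc2a2 ranged from -0.13 to 0.44 and the potassium channel subunit gene abcc8 from -0.44 to 0.43 in the authors' deposited table. These genes are also expressed outside islets, slc2a2 in liver and intestine among others.

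A few of the transcripts that insulin is known to regulate were called at 1 h. Of 20 measured, 0 were called higher and 4 lower at 1 h after egg yolk, against 1.96% and 1.77% of all genes. At 1 h after egg white 1 was called higher and 1 lower, against 2.72% and 1.34% of all genes. The medians of the 20 were -0.09 and -0.08 in these comparisons, with 9 above 0 and 11 below in each. The list mixes transcripts that insulin represses with others that it induces. Its median and its split by sign therefore cannot show whether insulin targets responded. An unadjusted p under 0.05 was found for 10 and 7 of the 20, and for 14.5% and 14.2% of all genes. At 4 h the calls numbered 0 after egg yolk and 0 after egg white, against 1.36% and 0.444% of all genes. At that time 7 and 0 had an unadjusted p under 0.05, as did 7.77% and 2.55% of all genes. The insulin-repressed binding protein genes igfbp1a and igfbp1b fell by 2.10 and 1.71 at 1 h after egg yolk in the authors' deposited table. The other calls there were sesn1, a stress-induced brake on growth signalling (-1.85), and trim63, a muscle ubiquitin ligase gene (-1.79), in the authors' deposited table. Skeletal muscle markers were lower in that comparison, with 3 of 20 called lower, 0 called higher and a median of -0.74. Of these markers, 19 lay below 0 and 12 had an unadjusted p under 0.05, as did 14.5% of all genes. Their part in the 4 calls of insulin-regulated transcripts was not tested. After egg white, at 1 h, igfbp1b fell by 1.84 and foxo1b, a FOXO factor gene, rose by 1.34 in the authors' deposited table. At 1 h after egg yolk foxo1b had 1.13 there (adjusted p = 0.109). Below the level filter, at 0.925 CPM, the list gene fgf21 had a call at 1 h after egg white. It stood at -2.49 in the authors' deposited table (adjusted p = 6.38e-07). fgf21 is not counted among the 20 and was named after its values were seen. The list gene pck2 had 1.11 and 1.15 at 1 h after egg yolk and egg white in the authors' deposited table (adjusted p-values of 0.0698 and 0.0502). pck1, the gluconeogenic enzyme gene that insulin represses in mammals, had 0.43 at 1 h after each meal in the authors' deposited table (adjusted p-values of 0.873 and 0.87).

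**Figure D4:**
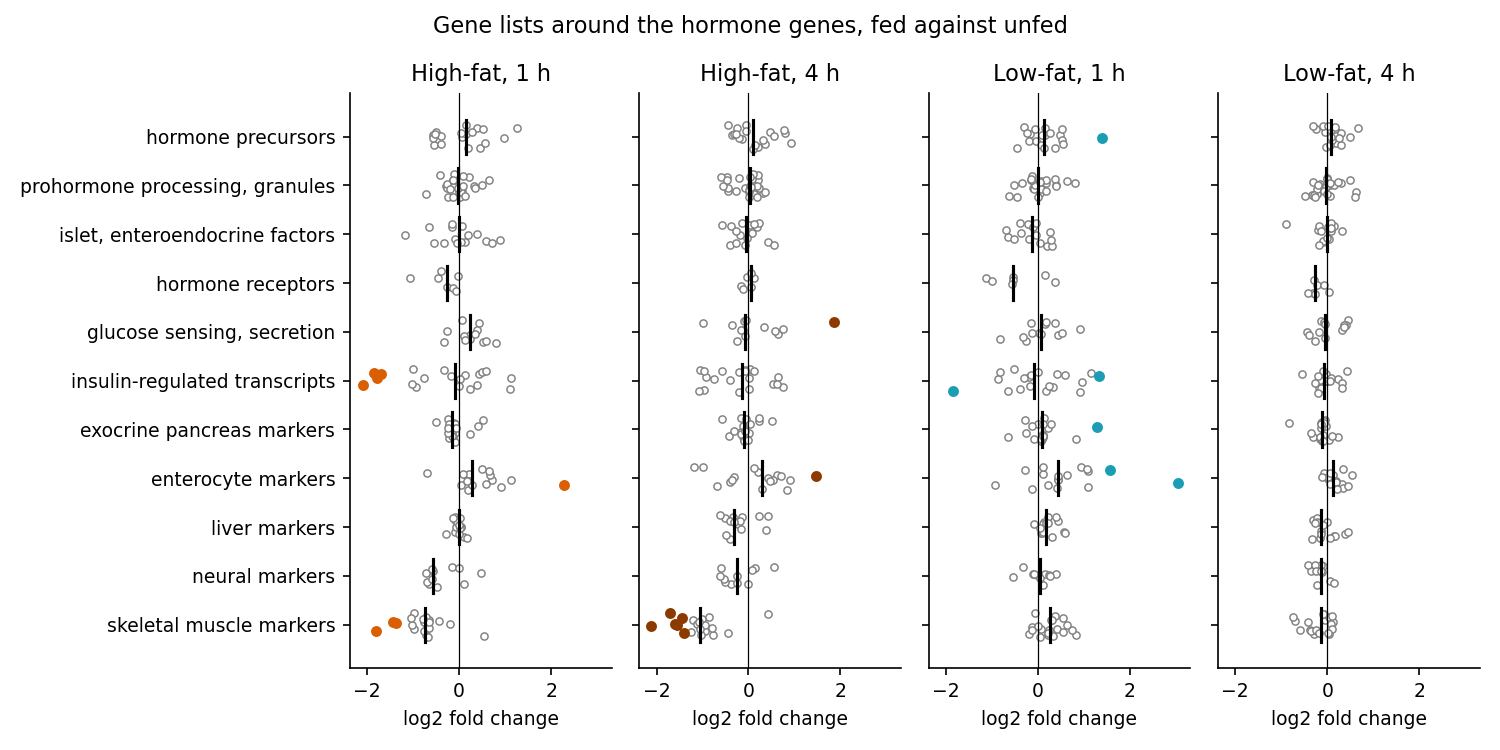
Log2 fold change of fed against unfed larvae (x axis) for the measured genes of 11 lists (y axis, spread within a list for clarity), with 1 panel per meal and time, the list median as a black line and filled points where the adjusted p was under 0.05. At 1 h after egg yolk 4 insulin-regulated transcripts are filled, all below 0, while 9 of the 20 in that list lie above 0. That list mixes insulin-repressed and insulin-induced transcripts. Muscle and enterocyte markers also have filled points there, and penkb is the one filled hormone precursor in the figure.

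Markers of neighbouring cell types were set beside these values. For their counts, 3.73% and 1.36% of all genes were called at 1 h and 4 h after egg yolk, and 4.06% and 0.444% after egg white. Of 11 measured neural markers 0 passed in each comparison, with medians of -0.56 and -0.26 at 1 h and 4 h after egg yolk and 0.05 and -0.14 after egg white. Enkephalins are also made by neurons of the gut wall. Where penkb rose, 6 of these 11 markers lay above 0 and 5 below, and a part of neurons in that rise was not tested. Exocrine pancreas markers had medians of -0.16, -0.09, 0.09 and -0.11 in the order egg yolk 1 h, egg yolk 4 h, egg white 1 h and egg white 4 h, with 1 of 20 called, bhlha15, a secretory cell factor gene, at 1.29 in the authors' deposited table at 1 h after egg white. Liver markers gave 0 calls of 15 in each comparison. Of 17 enterocyte markers 1, 1, 2 and 0 were called higher in the same order and 0 called lower, with medians of 0.29, 0.29, 0.44 and 0.13. By sign alone, 16, 11, 14 and 15 lay above 0 and 1, 6, 3 and 2 below. An unadjusted p under 0.05 was found for 5, 6, 7 and 0 of the 17, and for 14.5%, 7.77%, 14.2% and 2.55% of all genes. The called markers were elovl7b, a fatty acid elongase gene, at both 1 h times (2.29 and 3.06), fabp6 at 4 h after egg yolk (1.47) and slc6a19a, an amino acid transporter gene, at 1 h after egg white (1.56), in the authors' deposited table. Skeletal muscle markers had a median of -1.06 at 4 h after egg yolk, with 6 of 20 called lower and 19 of 20 below 0. An unadjusted p under 0.05 was found for 18 of the 20 there, and for 7.77% of all genes. After egg white their medians were 0.26 and -0.14 with 0 called. There 2 and 2 of 20 had such a p, beside 14.2% and 2.55% of all genes.

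The genes whose 4 values lay nearest to those of ins were gspt1l, adka, sult2st2, acy1 and fkbp1aa, among 1878 genes at log2 CPM 5 or above. Their distances from ins in the authors' deposited table were 0.085 to 0.12 on the log2 scale over the 4 comparisons. Within a distance of 0.5, which admits changes larger than those of ins, lay 715 genes, or 38.1%.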

How the data were processed

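Messenger RNA (poly(A) libraries) was sequenced from 18 pooled samples, per the labels' protocols. The submitters' processing notes name TopHat2, edgeR and build Zv9, with no roles. Versions, counting tool and annotation were not stated there or in the labels. The deposited table gives, per the file headers, the authors' log2 fold change, p-value and adjusted p-value (FDR) for each comparison and an average log2 CPM. It has 0 columns of single samples, so no count test could be run and depth per sample is unknown. The deposited adjusted p-values match Benjamini-Hochberg values over every row. Starts count from 0 in the table and were raised by 1.

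Per symbol, the row with the highest log2 CPM was kept. Implied standard errors are the median ratio of log2 fold changes above 0.5 in size to the normal score of their p-value, by log2 CPM. They give the 95% intervals and an approximate normal test of differences between meals (errors added) and times (unfed samples cancel, on the assumption of equal errors). The test was run on simulated data drawn with these same errors. That checks the calculation and cannot show that the errors hold for these samples. Lists were described by counts and medians, with 0 to 4 symbols a list matched through RefSeq synonyms. Members, lists and tests were chosen with earlier results of these data known. Named genes were the members, called list genes, hormone precursors with log2 CPM of at least 2 and the 5 genes nearest to ins. List genes named without a call or below the level filter were chosen after their values were seen. The series' design text describes the 3 samples of a group as prepared independently from crosses. Alternatives covered the row kept per symbol, the set adjusted over, centring, the error used and the level filter. Python 3.11.15, NumPy 2.4.6, SciPy 1.17.1 and pandas 2.3.3 were used.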

Additional observations from a re-analysis of the deposited data

How the results depend on the processing

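All 28 member values kept their side of the threshold when p-values were adjusted over 1 row per symbol and when fold changes were centred on well-read genes. Pooling rows by the median also moved none across it. That could change only gcga, gcgb and ghrl, the members with 2 rows, and not the penkb call. The direction of the 28 values was kept too, except that centring turned ins at 1 h after egg yolk to -0.01 and insl5a at 1 h after egg white to -0.04, both without a call. The member differences kept both with each gene's own error, with no filter on low values and with centring. Centring shifted 1 h after egg white by 0.13 (log2), where the penkb value became 1.26 (adjusted p = 0.0342). The difference of penkb between 4 h and 1 h after egg white had adjusted p-values of 0.0509 to 0.0939. List calls at 1 h after egg white numbered 6 of 180 distinct list genes, beside 4.06% of all 12828 genes. They numbered 2 at log2 CPM of 2 or above and 11 with no filter on low values. Those 2 settings test fewer or more genes, and no share is given for them. No paired analysis was possible because no column holds a single sample's values, and for the same reason leaving out each replicate was not run.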

Other observations

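fgf21, which codes for a fasting and nutrient hormone in mammals, is on the list of insulin-regulated transcripts. The gene lies below the level filter at 0.925 CPM and was named after its values were seen. It fell by 2.49 at 1 h after egg white in the authors' deposited table (adjusted p = 6.38e-07). At 1 h and 4 h after egg yolk the authors' deposited table gave fgf21 -0.88 and 0.70, neither of which passed (adjusted p = 0.508 and 0.792).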
